A study of Homo sapiens with 6 samples.

Results

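H/ACA small nucleolar RNAs and small Cajal body RNAs were examined in HCT116, a long-established cell line from a human colorectal carcinoma. The set holds every gene whose symbol starts with SNORA or SCARNA in the platform annotation, read from probe sets (groups of array probes for a transcript) that were paired with exactly 1 symbol. It has 77 of the 18417 named genes on the array, 61 SNORA and 16 SCARNA genes. A further 20 SNORA or SCARNA symbols occur only on probe sets that carry several symbols and were given no value. The study used 6 Affymetrix whole-transcript arrays, each made from 6 micrograms of total RNA. The 3 arrays labelled control came from cells given siGFP, a duplex against a gene these cells do not make. The 3 arrays labelled siChe-1 came from cells given a duplex against Che-1, the product of AATF. All cells were taken 48 h after transient transfection, and the labels do not say whether replicates were grown separately, so the spread behind each p-value may be technical. The number of arrays limits the precision.

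H/ACA RNAs fold into a pair of hairpins, each followed by a short single-stranded box, called H and ACA. Each guides the enzyme dyskerin, bound with NOP10, NHP2 and GAR1, to uridines of a target RNA, which are turned into pseudouridine. SNORA RNAs act in the nucleolus, mostly on ribosomal RNA, and SCARNA RNAs act in Cajal bodies, nuclear bodies that mature spliceosomal snRNAs. In human cells most of these RNAs are cut out of the introns of other genes and trimmed by exonucleases until the bound proteins stop the enzyme. The SCARNA name covers both families of guide, so the label H/ACA is not right for all 77. SCARNA2, SCARNA7, SCARNA9 and SCARNA17 are box C/D guides, which direct ribose methylation, and SCARNA5, SCARNA6, SCARNA10 and SCARNA12 carry boxes of both kinds. Of these 8, SCARNA2 had no value here.

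Sequence entries tied to 2 SCARNA genes are printed here. One member of the 77, SCARNA16 (ACA47), overlaps a miRNA hairpin in RefSeq, MIR6516, at chr17:77089417-77089497 on the plus strand of GRCh38.p14. The hairpin shows the 3′ end of an H/ACA RNA, and the capitals mark an ACA that stands 3 bases before the last base of SCARNA16.
MIR6516 hairpin: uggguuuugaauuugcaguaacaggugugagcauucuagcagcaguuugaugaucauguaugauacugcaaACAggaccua
hsa-miR-6516-3p: aucauguaugauacugcaaACA
The mature 3′ miRNA ends with that ACA. SCARNA16 read 8.22, 8.25 and 7.94 (log2 RMA value) in the arrays labelled control and 8.05, 7.97 and 8.09 in those labelled siChe-1, so the groups overlapped, and the difference was -0.097 ± 0.13 (SE).

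SCARNA17 (U91), the box C/D guide with the highest value of the set, starts at the same base as SNHG22, the long noncoding RNA that holds it. The RefSeq window of that shared start, chr18:49813773-49814072 on the plus strand of GRCh38.p14, runs from 250 bases before it to 50 bases after it. The capitals mark a CCAAT box, read on the other strand as ATTGG, which begins 36 bases before the start.
SNHG22 and SCARNA17 start: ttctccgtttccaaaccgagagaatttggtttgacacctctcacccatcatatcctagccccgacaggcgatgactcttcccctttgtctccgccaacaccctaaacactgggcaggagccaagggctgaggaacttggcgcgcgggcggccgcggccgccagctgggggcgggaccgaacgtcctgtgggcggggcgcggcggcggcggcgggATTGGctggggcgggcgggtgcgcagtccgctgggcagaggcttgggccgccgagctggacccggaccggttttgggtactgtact
Searched on both strands, with overlapping matches counted, the window held 1 CCAAT, 5 GGGCGG (a GC box), no TATAAA and no CACGTG. Of 35116 windows of the same length, 34.6% held CCAAT, 45% GGGCGG, 11.5% TATAAA and 7.26% CACGTG. SCARNA17 read 10.34, 10.39 and 10.31 in the arrays labelled control and 10.14, 10.36 and 10.35 in those labelled siChe-1. The groups overlapped, and the difference was -0.064 ± 0.12 (SE, 95% limma interval -0.33 to 0.20).

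The gene targeted by the siRNA went against the labels. AATF read 7.55, 7.75 and 7.55 in the arrays labelled control and 8.53, 8.81 and 8.87 in those labelled siChe-1, a difference of 1.12 ± 0.13 (limma adjusted p = 0.00122). Groups are therefore named by their labels, and "lower" and "higher" compare siChe-1 with control as labelled. Exchanged labels would turn each direction given here. Epithelial markers were present, with KRT8, KRT18, EPCAM and CDH1 between 7.85 and 12.5 in the arrays labelled control, while KRT20, CEACAM5 and VIL1 read 4.30 or less there. Of the 10 epithelial markers only KRT19 passed, lower by 1.51-fold (limma adjusted p = 0.0171), where 2.52% of all genes were called lower. KRT8 (-0.39), KRT18 (-0.44) and CDH1 (0.33) had groups that did not overlap but did not pass. With KRT19, 3 of the 10 were lower and 1 higher without overlap, against 13.3% and 10.6% of all genes. The part of these markers in the members' differences was not tested. Of 9 leukocyte and 10 fibroblast or endothelial markers, 7 and 8 were dim by the limit given next, among them PTPRC (2.41 and 2.46). Not dim were TYROBP (5.84 and 6.07), SPI1 (5.32 and 5.45), COL1A1 (7.02 and 7.41) and COL1A2 (4.29 and 4.28). In each of these lists 2 markers were higher without overlap, where 10.6% of all genes were, and none passed by limma.

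RMA values carry no detection call, so a limit was taken from 361 olfactory receptor genes, most of which read low. Not all of them did. The highest mean among them was 9.43, and their 99th percentile was 6.81 for the control and 6.45 for the siChe-1 label. The set may therefore not be all background. A member was called dim where its mean was under the 95th percentile of those genes in both groups, 4.17 for the control and 4.30 for the siChe-1 label. By this limit 19 of the 77 members (24.7%) were dim, 16 SNORA and 3 SCARNA, against 30.6% of all named genes and 53 of 115 box C/D SNORD genes. The dim members were SCARNA4, SCARNA14, SCARNA23, SNORA2A, SNORA5B, SNORA15, SNORA16B, SNORA19, SNORA28, SNORA35, SNORA36C, SNORA41, SNORA58, SNORA69, SNORA70B, SNORA70C, SNORA70E, SNORA70F and SNORA70G. SNORA30 was under the limit in 1 group only (4.38 and 4.20). A dim value may be background, so a small difference there does not show that the RNA did not change. The limit itself is uncertain: a limit at percentile 90 of the same genes would make 8 members dim and one at percentile 99 would make 45.

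The other 58 members read from 4.29 to 10.3 as means over the 6 arrays. Of the 77, 15 had a mean of 8 or more, 29 lay from 6 to under 8, and 14 were lower than 6 but not dim. Values of different probe sets depend on their probes, so this order places members on the array's scale and does not rank RNA amounts. The 8 highest means were those of SCARNA17 (10.3), SNORA21 (9.94), SNORA71C (9.19), SNORA3A (8.93), SCARNA12 (8.75), SNORA23 (8.66), SNORA67 (8.59) and SNORA68 (8.56). The 5 lowest were those of SNORA70F (2.74), SCARNA14 (2.76), SCARNA23 (2.79), SNORA36C (2.98) and SNORA19 (3.21), close to the olfactory receptor median of 2.79 and 2.76 in the 2 groups. Of the 6 measured members of the SNORA70 family, 5 were dim, and the sixth, SNORA70D, read 4.30 and 4.35.

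**Figure D1:**
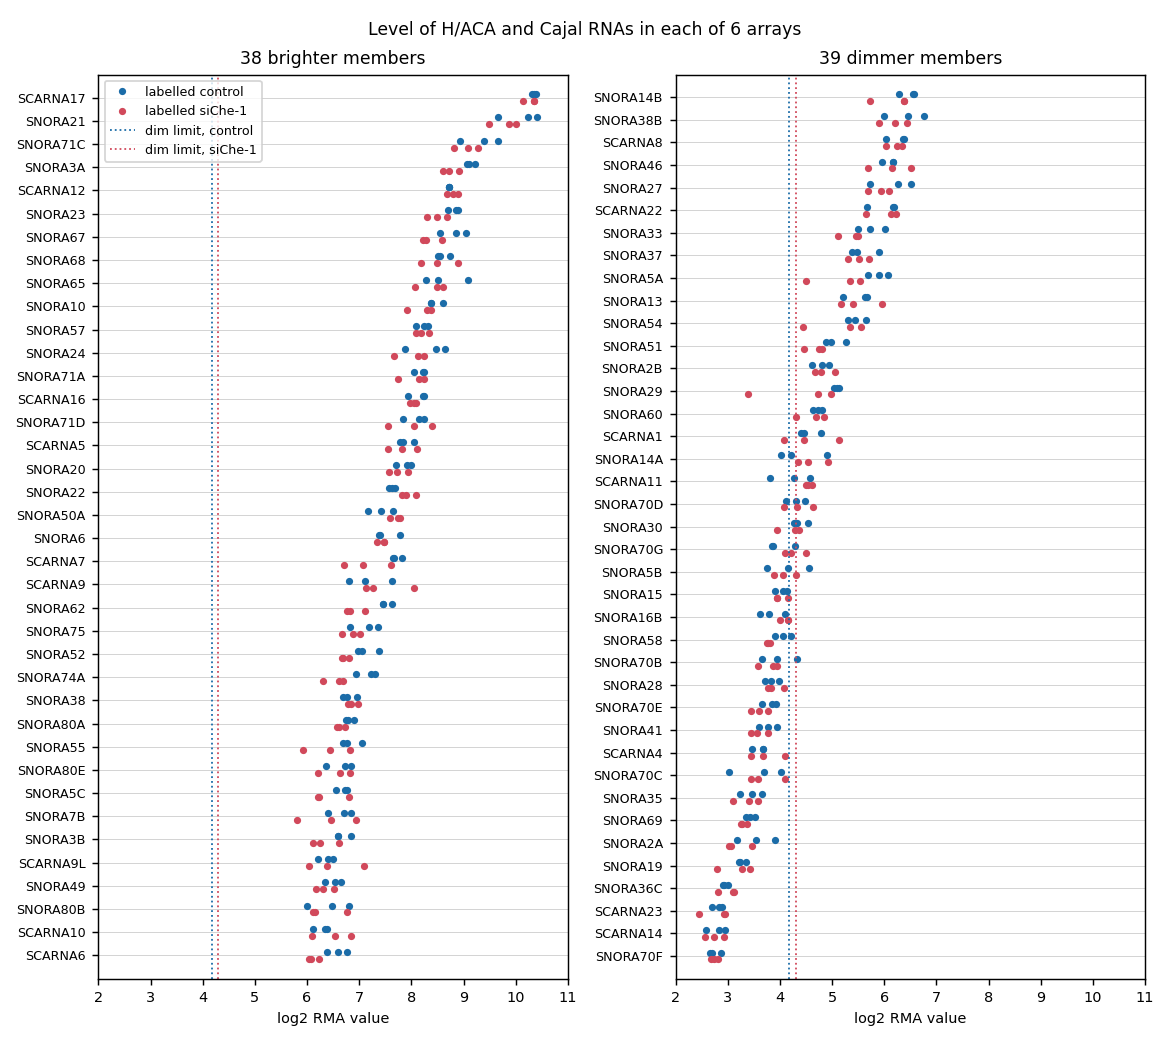
Log2 RMA value (x axis) of each of the 77 members in the 3 arrays labelled control (blue) and the 3 labelled siChe-1 (red), members ordered by mean. Dotted lines are the dim limits of 4.17 and 4.30; for most members the points of the groups overlap, and for SNORA62 the 3 red points, 6.76 to 7.11, lie left of the 3 blue ones, 7.45 to 7.63.

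Only 1 member differed between the groups after adjustment over all genes. SNORA62 (E2), a guide for ribosomal RNA, read 7.45, 7.63 and 7.46 in the arrays labelled control and 6.76, 6.82 and 7.11 in those labelled siChe-1. All 3 siChe-1 values lay under all 3 control values. It was lower by 1.54-fold (7.51 ± 0.10 to 6.89 ± 0.18, SD, n = 3 each; log2 difference -0.62 ± 0.13, SE, 95% interval -0.92 to -0.32, limma adjusted p = 0.0323). Permuting the labels of its 6 values exactly (two-sided) gave p = 0.1, the smallest that 3 arrays against 3 allow. The call was lost without any 1 of the 3 control arrays or without siChe-1 replicate 2 (limma adjusted p from 0.0891 to 0.151), and held without siChe-1 replicate 1 or 3.

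Read against all genes, 1 of 77 is 1.3% of members, where 2.52% of all genes were called lower. No member was called higher by limma, against 1.19% of all genes, and 1 was higher at an unadjusted p under 0.05, SNORA22. At an unadjusted p under 0.05, 13 members were lower and 1 higher, against 9.77% and 7.88% of all genes. The groups did not overlap for 13 lower members (16.9%) and 1 higher member, against 13.3% and 10.6% of all genes. These arrays hold RNA of many cells, so fewer cells making an RNA and less of it per cell cannot be told apart. The share of called members was not above the background, and the share of non-overlapping lower members was near it, while the share lower at an unadjusted p under 0.05, 16.9%, was above it.

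Small differences below 0 were common. The difference was below 0 in 58 of 77 members (75.3%), against 49.1% of all genes, and the median was -0.10 on the log2 scale, against 0.0051 over all genes. The quartiles of the members lay at -0.28 and -0.0011. The median stayed below 0 when the arrays were normalised in other ways and without any 1 array. Among SNORA genes 49 of 61 were below 0 with a median of -0.17, and among SCARNA genes 9 of 16 with a median of -0.015; the difference between these kinds was not tested. The 115 box C/D SNORD genes had a median of -0.16, with 90 below 0 and 2 called lower. Olfactory receptor genes, most of them at the low end of the scale, had a median of -0.036, with 222 of 361 (61.5%) below 0.

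No member differed by 2-fold. The lowest difference was -0.76 and the highest 0.34, 45 of 77 lay within 0.25 of 0, 5 were at -0.5 or below and 0 at 0.5 or above. For 74 of 77 the 95% limma interval lay wholly inside a 2-fold change in either direction. The exceptions were SNORA5A, SNORA29 and SCARNA7, whose intervals reached -1.29, -1.452 and -1.02. The median interval ran 0.35 to either side of the difference.

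**Figure D2:**
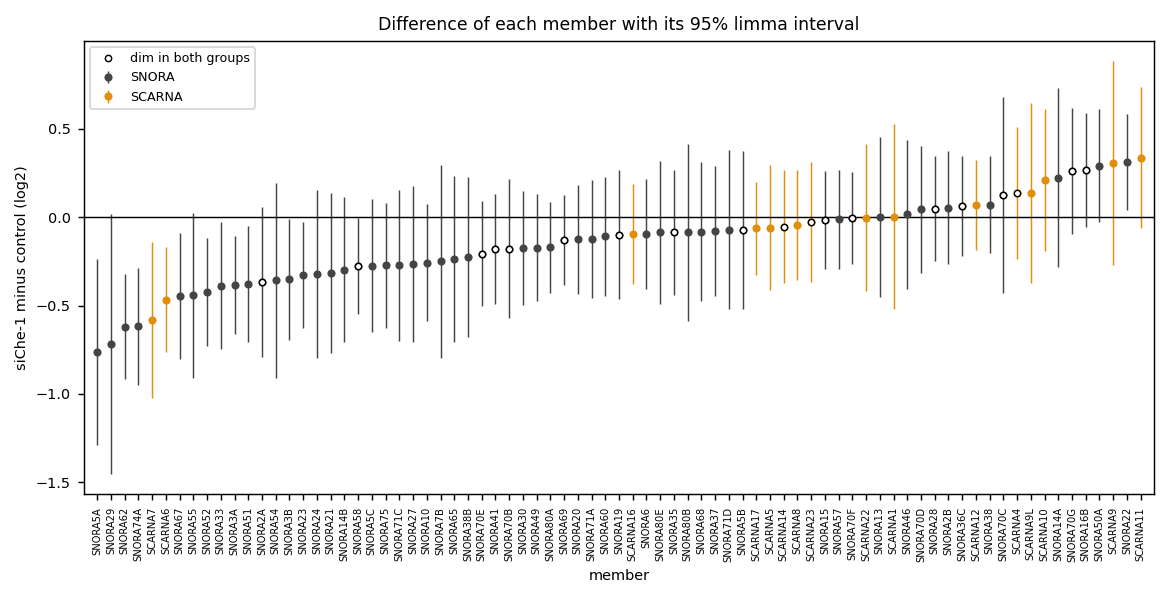
Difference, siChe-1 minus control on the log2 scale (y axis), of each of the 77 members, ordered from lowest to highest, with bars for the 95% limma interval; open points are dim in both groups. Of the 77 points 45 lie within 0.25 of 0, and the 5 at or below -0.5 are SNORA5A, SNORA29, SNORA62, SNORA74A and SCARNA7.

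The other members with low differences did not pass, including SNORA5A and SNORA29, whose differences were lower than that of SNORA62. SNORA74A (U19), a guide for ribosomal RNA that is longer than most of its kind, read 7.30, 7.23 and 6.94 in the arrays labelled control and 6.31, 6.62 and 6.69 in those labelled siChe-1. The groups did not overlap, and the difference of -0.62 ± 0.15 just missed the threshold (limma adjusted p = 0.0506). SNORA5A read 5.70, 5.90 and 6.08 against 4.51, 5.35 and 5.53, again without overlap, at -0.76 ± 0.24 (limma adjusted p = 0.115), and without siChe-1 replicate 1 the difference was -0.45. SNORA29 read 5.09, 5.13 and 5.03 against 3.39, 4.98 and 4.74, at -0.72 ± 0.33 (limma adjusted p = 0.294). Its SD of 0.86 was the largest of any member in the arrays labelled siChe-1, and siChe-1 replicate 1 alone fell below the dim limit.

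Without siChe-1 replicate 1 the difference of SNORA29 was -0.23. That array was the lowest of its group for 36 of 77 members (46.8%), against 38.7% of all genes, and the highest for 23 (29.9%), against 43.6% of all genes. Control replicate 3 was the lowest of its group for 39 members (50.6%), against 32.3% of all genes. The largest SD in the arrays labelled control was that of SNORA70C (0.51), which is dim. The median SD of the members was 0.18 and 0.22 in the 2 groups, against 0.12 and 0.17 over all genes.

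SNORA67 (-0.45 ± 0.16, limma adjusted p = 0.169) and SNORA55 (-0.44 ± 0.21, adjusted p = 0.312) completed the 8 lowest, and for both the groups overlapped. Without siChe-1 replicate 1 SNORA55 was at -0.20.

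Among the Cajal body RNAs, SCARNA7 and SCARNA6 had the lowest differences. SCARNA7 (U90), a box C/D guide for U1 snRNA, read 7.67, 7.65 and 7.83 in the arrays labelled control and 6.72, 7.08 and 7.60 in those labelled siChe-1. The groups did not overlap, although siChe-1 replicate 3 lay just under the control values, and the difference was -0.58 ± 0.20 (limma adjusted p = 0.147). Without siChe-1 replicate 1 it was -0.38 (limma adjusted p = 0.179), and without siChe-1 replicate 3 it was -0.82 (limma adjusted p = 0.0337). SCARNA6 (U88), which carries boxes of both kinds, read 6.58, 6.77 and 6.38 against 6.04, 6.07 and 6.22, also without overlap, at -0.47 ± 0.13 (limma adjusted p = 0.0895). The other 14 SCARNA genes had groups that overlapped. The 2 without overlap were 12.5% of the 16, where 13.3% of all genes were lower without overlap. None of the 16 passed by limma, where 2.52% of all genes were called lower and 1.19% higher. The unadjusted limma p was under 0.05 for 2 of the 16, both lower, against 9.77% of all genes that were lower.

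The remaining box C/D and mixed guides were close to 0 or above it. SCARNA5 (U87) differed by -0.060, SCARNA12 (U89) by 0.066, SCARNA10 (U85), the mixed guide that modifies U5 snRNA, by 0.21, and SCARNA9 by 0.30. SCARNA9 was the most scattered of these, at 7.62, 6.80 and 7.11 against 7.27, 7.13 and 8.05. Without siChe-1 replicate 3 SCARNA9 was at 0.019 and SCARNA10 at 0.034, and without control replicate 2 SCARNA9 was at 0.11. SCARNA9L, a near-copy of SCARNA9, differed by 0.14 and, without siChe-1 replicate 3, by -0.16. Short probes may not separate such near-copies, so both values are uncertain. With the probe sets of each gene averaged, SCARNA9 was at 0.11 and SCARNA9L at 0.054.

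Of the H/ACA type, SCARNA1 (0.0024), SCARNA8 (-0.043), SCARNA16 (-0.097) and SCARNA22 (-0.0027) had differences near 0, as did the dim SCARNA4 (0.13), SCARNA14 (-0.054) and SCARNA23 (-0.028). SCARNA11 had the highest difference of all 77, 0.34 ± 0.18 (limma adjusted p = 0.373), with 1 control array, at 3.81, under the dim limit. Without that array, control replicate 2, it was 0.13, and without control replicate 1 it was 0.51. SNORA22 was the single member whose siChe-1 values all lay above its control values, at 7.89, 7.82 and 8.09 against 7.56, 7.62 and 7.68. Its difference of 0.31 ± 0.12 did not pass (limma adjusted p = 0.209). SNORA50A followed at 0.29 ± 0.14 and SNORA14A at 0.22 ± 0.23, both with groups that overlapped. Without control replicate 3 they were at 0.17 and 0.043, and without siChe-1 replicate 1 SNORA14A was at 0.065. SNORA38, at 0.070, was the last of the 8 highest among members that were not dim.

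Every member lies inside another gene. In the RefSeq gene table (GRCh38.p14) all 77 fell within the span of a longer gene, 67 different hosts in all by the shortest span. Members were 123 to 421 bases long, with a median of 134 for SNORA and 226.5 for SCARNA genes. The table gives no strand, so a host could be on the other strand, and 11 members lay in more than 1 gene. For 56 members the host had a named probe set, 47 hosts in all.

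No host passed the test. None of the 47 passed by limma, the nearest being EIF5, host of SNORA28, at -0.86 ± 0.21 (limma adjusted p = 0.0571), and 11 were lower and 3 higher at an unadjusted p under 0.05, against 9.77% and 7.88% of all genes. EIF5, a translation initiation factor, read 9.16, 9.36 and 9.52 against 7.96, 8.66 and 8.85 without overlap, while the dim SNORA28 inside it read 3.99, 3.72 and 3.83 against 4.08, 3.83 and 3.77. Across the 56 members, the differences of member and host had Pearson r = 0.15 and Spearman rho = 0.14. These points come from the same 6 arrays, several share a host, and genes are not independent replicates, so the correlation is a description. In 27 cases member and host were both below 0, in 9 both above 0, in 14 the member alone was below 0 and in 6 the host alone.

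**Figure D3:**
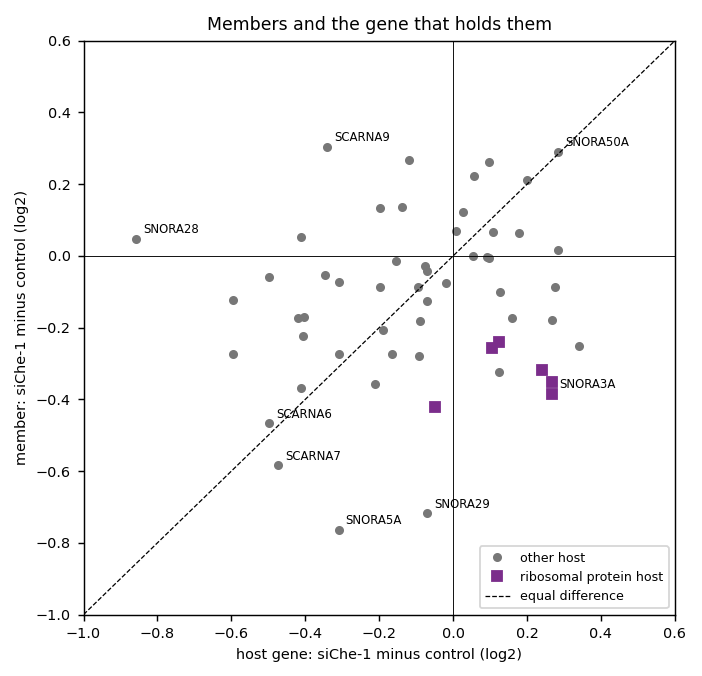
Difference, siChe-1 minus control on the log2 scale, of 56 members (y axis) against that of the gene that holds each (x axis); squares are members inside ribosomal protein genes and the dashed line marks equal differences. The points scatter widely about the line (Pearson r = 0.15), and the 6 squares all lie below it.

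Members inside ribosomal protein genes were picked out after the values were seen, so they are described with no test of the group. The plot holds 6 of them, all below the line of equal differences. There are 12 such members, SNORA3A, SNORA3B, SNORA6, SNORA10, SNORA21, SNORA27, SNORA33, SNORA52, SNORA62, SNORA65, SNORA68 and SNORA69. All 12 were below 0, from -0.62 to -0.082, with a median of -0.29, and SNORA62 was the only one that passed. Below 0 were also 10 of 12 members in lncRNA hosts and 35 of 51 in other protein-coding hosts. These classes go by the shortest span without regard to strand, so they are uncertain for members that lie in several genes. SNORA71D, which also lies in the lncRNA gene SNHG17, was counted as protein-coding. SCARNA11 and SNORA55, counted under lncRNA, also lie in CHD4 and PABPC4. For 6 of the 12 in ribosomal protein genes the host was measured. RPL27A, a protein of the large ribosomal subunit, read 11.25 ± 0.06 and 11.52 ± 0.06 (SD, n = 3 each), a difference of 0.27, while SNORA3A and SNORA3B inside it differed by -0.38 and -0.35. RPL23 differed by 0.24 and SNORA21 by -0.32, RPS2 by 0.10 and SNORA10 by -0.26, RPL12 by 0.12 and SNORA65 by -0.24, and RPLP2 by -0.048 and SNORA52 by -0.42.

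The gap between member and host, taken within each array, did not overlap between the groups for 11 of all 56 pairs of member and host. Among members in ribosomal protein genes these were SNORA3A, SNORA3B, SNORA21 and SNORA52, each with p = 0.1 by an exact two-sided permutation test, the smallest possible here. The others were SCARNA5, SNORA2B, SNORA16B, SNORA19, SNORA23, SNORA28 and SNORA29. After adjustment over all 56 pairs the p of each of the 11 became 0.51, so none passed. For the values of single genes, groups did not overlap for 13.3% of all genes as lower and 10.6% as higher. No such share was taken for gaps over other pairs of genes. For SNORA10 and SNORA65 the exact p was 0.2 and 0.5. None of the 5 hosts passed by limma (adjusted p from 0.245 to 0.871). Ribosomal protein genes have many processed copies, which can share a host's signal.

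Members cut from the same host did not always match each other. RPSA, which encodes a protein of the small ribosomal subunit, holds SNORA62 and SNORA6 in separate positions. Where SNORA62 was lower, SNORA6 read 7.38, 7.79 and 7.40 in the arrays labelled control and 7.34, 7.47 and 7.47 in those labelled siChe-1, a difference of -0.095 ± 0.14. The gap of SNORA62 over SNORA6 within an array was 0.070, -0.15 and 0.063 in the arrays labelled control and -0.58, -0.65 and -0.36 in those labelled siChe-1, a shift of -0.52 with no overlap (exact two-sided permutation p = 0.1). The introns of ATG16L1, an autophagy gene, hold SCARNA5 and SCARNA6, whose gap shifted by -0.41, also with no overlap (exact permutation p = 0.1). Over the 13 pairs of members that share a host, the smallest adjusted p was 0.52, so no pair passed.

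In TBRG4 the members were all below 0 but spread widely. SNORA5A was at -0.76, SNORA5C at -0.27 and the dim SNORA5B at -0.071. TBRG4 itself, a mitochondrial RNA regulator, differed by -0.31 ± 0.11 (limma adjusted p = 0.183). In TCP1, a chaperonin subunit gene, SNORA29 was at -0.72 and SNORA20 at -0.13, and the gap between them was -4.54 in siChe-1 replicate 1 against -2.60 and -2.99 in the other siChe-1 arrays. SNORA3A and SNORA3B in RPL27A had like differences, with a gap of 2.45 and 2.42 in the 2 groups. SNORA71A, SNORA71C and SNORA71D, which lie in SNHG17 and are near-copies whose probes may not separate them, differed by -0.12, -0.27 and -0.072. SNHG17 was at -0.60 (limma adjusted p = 0.0933).

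**Figure D4:**
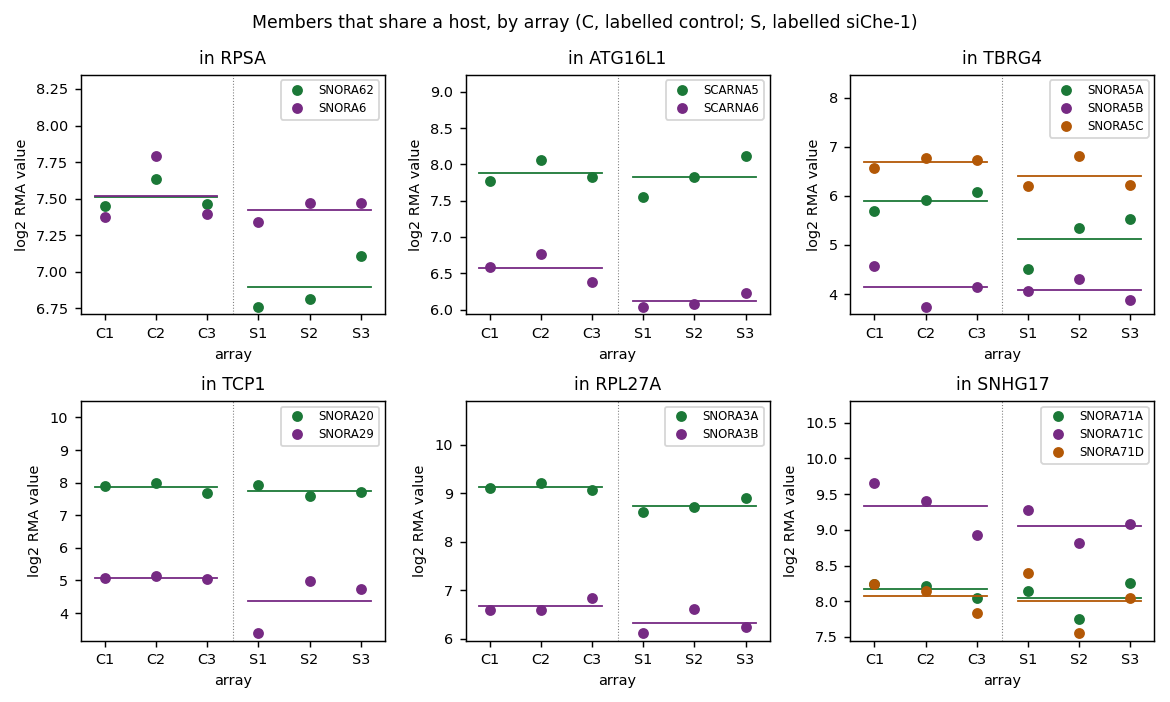
Log2 RMA value (y axis, own scale in each panel) of members that share a host, in each array labelled control (C1 to C3) and siChe-1 (S1 to S3), with lines for group means. In the RPSA panel SNORA62 and SNORA6 share a mean of about 7.5 in the arrays labelled control and part in those labelled siChe-1 (6.89 and 7.43); in the TCP1 panel a single array, S1, holds the low SNORA29 value.

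The proteins that these RNAs bind did not pass the test. None of the 4 core proteins passed by limma, and 1, DKC1, had an unadjusted p under 0.05. DKC1, the pseudouridine synthase dyskerin, read 9.19, 9.11 and 8.86 in the arrays labelled control and 8.51, 8.75 and 8.83 in those labelled siChe-1, at -0.35 ± 0.14 (limma adjusted p = 0.217). NOP10 differed by -0.31, GAR1 by -0.064 and NHP2 by 0.019. None of the 9 assembly factors passed by limma, with 7 below 0 and a median of -0.31. For 4 of the 9 the groups did not overlap, all lower, where 13.3% of all genes were lower without overlap. TCOF1 had the smallest adjusted p of the 9 (-0.36, limma adjusted p = 0.112). NAF1, the assembly factor that GAR1 replaces, was at -0.40 (adjusted p = 0.179) and SHQ1, which holds free dyskerin, at -0.38 (adjusted p = 0.335).

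Among 15 measured Cajal body and scaRNA factors, limma called 4 lower and 0 higher and left 11 uncalled, with a median of -0.26. Over all genes 2.52% were called lower. For 8 of the 15 the groups did not overlap, all lower, where 13.3% of all genes were lower without overlap. The 4 called genes were all subunits of the SMN complex, which loads Sm proteins on snRNAs, the targets of the SCARNA guides. GEMIN5, which recognises the snRNA, read 8.76, 8.65 and 8.74 in the arrays labelled control and 7.42, 7.92 and 7.89 in those labelled siChe-1, lower by 1.96-fold (log2 difference -0.97 ± 0.15, limma adjusted p = 0.00578). GEMIN4 was lower by 1.70-fold (adjusted p = 0.0170), GEMIN6 by 1.501-fold (adjusted p = 0.0486) and DDX20, the helicase Gemin3, by 1.46-fold (adjusted p = 0.0301). For each of the 4 all siChe-1 values lay under all control values. TOE1, another gene of this list, was also lower without overlap but did not pass (-0.55, limma adjusted p = 0.0579). GEMIN2 (-0.16), GEMIN7 (-0.45), GEMIN8 (0.25) and STRAP (-0.095) of the SMN complex did not pass. Nor did COIL, the Cajal body scaffold (-0.12), or WRAP53, which brings scaRNAs to it (-0.26). Without any 1 of the control arrays GEMIN5 was the only called gene of the pathway lists, and without siChe-1 replicate 2 or 3 GEMIN5 and GEMIN4 were.

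Of 26 measured genes of snoRNA end maturation and decay, none passed by limma, 8 had lower groups without overlap (13.3% of all genes did), and the median was -0.18. TGS1, the cap hypermethylase of independently made snoRNAs and snRNAs, had the lowest difference, -0.64 (adjusted p = 0.0633), and PARN, which trims H/ACA tails, was at 0.056. Of 12 stand-alone pseudouridine synthases, which need no guide RNA, 1 was called lower and 11 did not pass (median -0.26), where 2.52% of all genes were called lower. For 5 of the 12 the groups did not overlap, all lower, where 13.3% of all genes were lower without overlap. PUS3, which modifies tRNA, read 6.70, 6.97 and 6.86 against 6.18, 6.16 and 6.32, lower by 1.54-fold (limma adjusted p = 0.0215).

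No telomerase or spliceosomal RNA passed the test. TERC, the telomerase RNA, which ends in an H/ACA domain, read 8.54, 8.38 and 7.87 against 9.003, 8.09 and 8.29, a difference of 0.20 ± 0.24. TERT was at 0.25 (adjusted p = 0.429). Of 11 measured spliceosomal and other small RNAs, none passed by limma. Their median was -0.026, over values of both signs, with RNU5A-1 at 0.58, RNU5B-1 at 0.55, RNU4-2 at -0.43 and RPPH1 at -0.34. As for box C/D core proteins, neither of the 2 measured passed, FBL at -0.048 and NOP58 at -0.49 (adjusted p = 0.108).

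**Figure D5:**
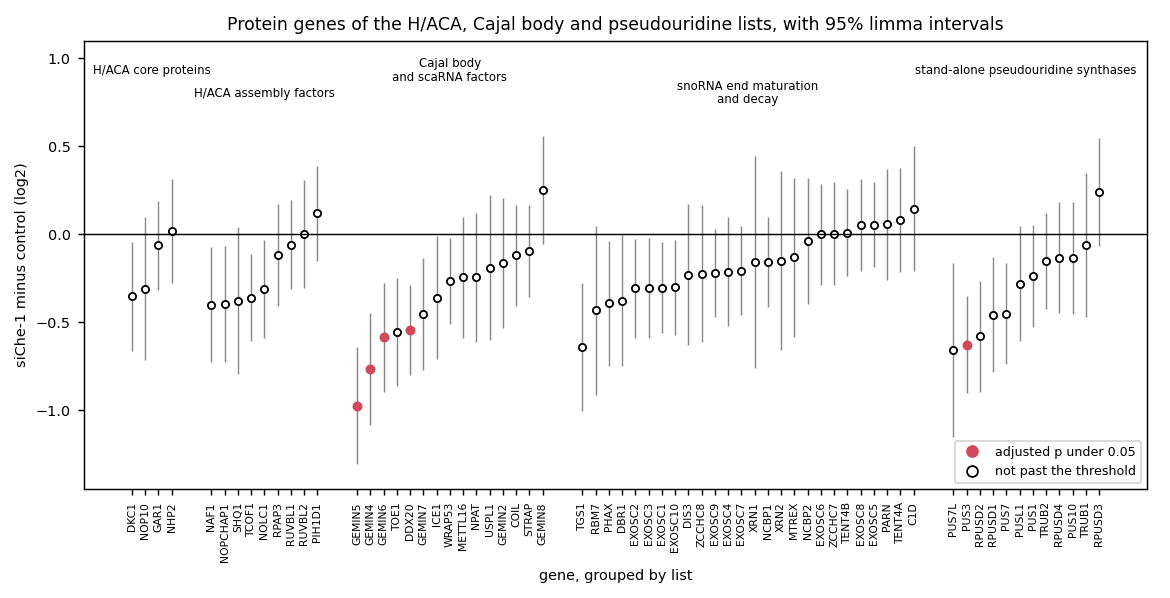
Difference, siChe-1 minus control on the log2 scale (y axis), of protein genes in 5 lists, with bars for the 95% limma interval; filled points passed at an adjusted p under 0.05. The filled points are GEMIN5, GEMIN4, GEMIN6, DDX20 and PUS3, all below 0, and the 4 core proteins at the left lie between -0.35 and 0.019.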

How the data were processed

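Values deposited by the authors are log2 intensities. The submitters' processing notes name Affymetrix Expression Console and RMA, with no version; RMA settings and the build are not given in the sources used here. RMA as commonly run equalises the distributions of arrays, so a shift of all RNAs per cell would not show, and differences of dim probe sets are compressed. Array medians lay between 4.95 and 5.05, and there were 0 other value columns.

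Of 33297 probe sets, 19460 had 1 symbol, 1754 several and 12083 none listed. The probe set with the highest mean was kept per gene, leaving 18417 genes; 5 members had more than 1. limma 3.58.1 in R 4.3.3 (lmFit, eBayes, no covariate or filter) was fitted to all genes as siChe-1 minus control, and a Benjamini-Hochberg adjusted p under 0.05 was called. The fit was tested on simulated data in which 200 genes were changed by 2-fold or 4-fold. It recovered 70% of the 2-fold and 97% of the 4-fold changes, and 6.18% of its calls were false. Changes smaller than 2-fold, the size seen in all members, were not simulated. Errors of groups are SDs and errors of differences SEs.

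Hosts were planned to be on the member's strand, but the gene table gives none, so the span alone was used. Named by rule were called members, the 8 largest differences each way among members not dim, the 8 highest and 5 lowest means, SCARNA genes, the largest SDs, called list genes and the core proteins; the other names were picked with values in view. Members, lists and tests were chosen with earlier results of these data known. The alternatives covered normalisation, dim genes, probe sets, variance models, weighting of arrays, blocking by replicate number, the threshold, the dim limit and leaving out each array.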

Additional observations from a re-analysis of the deposited data

How the results depend on the processing

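The count of lower members, 1, was 0 after quantile normalisation was run again, 0 with all probe sets tested, 0 at an adjusted p under 0.01, 2 after centring on array medians (SNORA62 and SNORA74A), 2 without the dimmest 40% of genes, and 6 with array weights, where 2 were higher. Leaving out 1 array gave 0 to 3 lower members. The labels number the replicates without saying what a number shares, so arrays of the same number were not treated as pairs. Their deviations from the group means correlated at 0.23, 0.064 and -0.045, and those of unlike numbers at -0.23 to 0.16. With the replicate number as a block, 4 members were lower (SNORA62, SNORA74A, SNORA5A and SCARNA7) and 10 genes of the pathway lists were called, 1 of them higher. The count of called pathway genes, 5, was 8 after centring, 8 without the dimmest genes, 1 with all probe sets tested, 17 with array weights, and from 1 to 12 when an array was left out; these alternatives were added after seeing the data. The median difference of the members stayed between -0.17 and -0.080 in all settings run for it. Dim members numbered 8 at percentile 90 and 45 at percentile 99 of the olfactory receptor genes. Of the 16 members named for their differences, 14 kept their direction in every alternative run for them, 13 or 14 each; SNORA14A reversed with array weights (-0.032) and SCARNA9L without siChe-1 replicate 3 (-0.16), its range without 1 array being -0.16 to 0.37. The correlation of members with hosts was 0.19 without dim genes and 0.057 with a host chosen, after seeing the data, for having a probe set. Signal over background limits what the 19 dim members can show.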
